A study of Mus musculus with 2 samples.

Results

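Carboxylesterases are serine hydrolases, most of them held in the lumen of the endoplasmic reticulum, that cleave ester and amide bonds of drugs, food compounds and neutral lipids. In the gut epithelium, enzymes of the Ces2 group are known as the main carboxylesterases of first-pass drug and ester hydrolysis. Ces1 enzymes are best known from liver and fat, where several of them hydrolyse triglycerides, cholesterol esters and other lipids. Of the 20 mouse carboxylesterase genes listed in RefSeq, among them the pseudogene Ces2d-ps, 9 are described here: Ces1d, Ces1e, Ces1f, Ces1g, Ces2a, Ces2c, Ces2e, Ces2g and Ces3a. Every probe set (a group of short array probes for 1 transcript) whose annotated symbol holds one of these names was taken, which gave 10 of the 45101 probe sets on the array. Of the 9 genes, 7 had a probe set of their own, Ces3a shared its probe set with its neighbour Ces3b, and Ces2c was not named on the array and has no value here. The 9 genes were chosen by name within the family with the intensities of both arrays, and so the transgenic to wild-type differences, already known. Their values, including their shared direction, are a description and carry no test.

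Small intestine was compared between IL-9 transgenic and wild-type mice, all of the BALB/c strain and aged 6 to 8 weeks, in a study of IL-9, mast cells and intestinal permeability. IL-9 is a cytokine of type 2 immunity. Each group was 1 array of RNA pooled from 3 untreated mice, so no difference has a replicate check and the spread between mice is unknown. The labels used here name neither the promoter that drives the transgene nor the segment of intestine taken.

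Values are RMA intensities on a linear scale, and differences are transgenic minus wild type on the log2(intensity + 1) scale, which understates changes of dim genes. Across all probe sets the arrays correlated at r = 0.994 (log2 scale), and medians of 78.7 in the transgenic and 78.3 in the wild-type pool left no overall shift. The single Il9 probe set gave 62.2 (transgenic) and 71.6 (wild type). The part of the gene that the transgene carries is not given, so this reading cannot serve as a check of the labels. The enterocyte list, read as a check of the tissue, had 9 of 9 named markers above the expression filter, an intensity of 78.5 that is the median of all values. Their intensities summed to 136968 in the transgenic and 141919 in the wild-type pool. Of the markers of the distal small intestine, the bile acid transporter Slc10a2 read 7.73 and 8.03 and the bile acid-binding protein Fabp6 read 13.3 in both pools. The lowest intensity on either array was 5.60, so both ileal markers lay near the bottom of the range. The 3′ to 5′ ratio of the actin probe sets, a sign of RNA integrity, was 1.33 in the transgenic and 1.61 in the wild-type pool. Its part in the differences below was not tested.

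Promoter windows are shown for 4 genes because their transgenic minus wild-type differences vary in direction and size. Ces1g and Ces1e had the lowest gene-level differences of the family, Ces1c had the highest, and Ces2a was nearly level. Each runs from 250 bases before the transcription start to 50 bases from it, 5′ to 3′ on the gene's strand, from RefSeq with assembly GRCm38.p6. Capitals mark the letters AGATAA (the core bound by GATA factors), TATAAA (the TATA box) and AGGTCA (a half-site of nuclear receptors), on either strand.
Ces1g, chr8:93337160-93337459, minus strand: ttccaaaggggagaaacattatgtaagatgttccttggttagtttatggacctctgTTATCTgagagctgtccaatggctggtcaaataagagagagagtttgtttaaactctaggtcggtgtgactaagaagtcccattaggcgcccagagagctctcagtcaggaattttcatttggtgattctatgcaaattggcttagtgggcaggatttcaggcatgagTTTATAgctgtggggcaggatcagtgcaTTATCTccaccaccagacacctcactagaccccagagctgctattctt
Ces1e, chr8:93229570-93229869, minus strand: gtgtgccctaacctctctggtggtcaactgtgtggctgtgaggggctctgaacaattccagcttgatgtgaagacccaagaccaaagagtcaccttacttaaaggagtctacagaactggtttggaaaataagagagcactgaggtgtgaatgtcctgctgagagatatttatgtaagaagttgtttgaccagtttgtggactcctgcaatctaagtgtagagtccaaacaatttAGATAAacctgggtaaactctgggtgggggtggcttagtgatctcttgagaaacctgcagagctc
Ces1c, chr8:93131234-93131533, minus strand: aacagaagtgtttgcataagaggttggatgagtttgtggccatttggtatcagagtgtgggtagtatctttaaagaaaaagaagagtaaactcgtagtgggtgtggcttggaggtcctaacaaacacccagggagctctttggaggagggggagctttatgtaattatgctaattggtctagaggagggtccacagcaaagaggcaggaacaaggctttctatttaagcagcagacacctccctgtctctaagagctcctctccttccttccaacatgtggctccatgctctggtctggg
Ces2a, chr8:104733753-104734052, plus strand: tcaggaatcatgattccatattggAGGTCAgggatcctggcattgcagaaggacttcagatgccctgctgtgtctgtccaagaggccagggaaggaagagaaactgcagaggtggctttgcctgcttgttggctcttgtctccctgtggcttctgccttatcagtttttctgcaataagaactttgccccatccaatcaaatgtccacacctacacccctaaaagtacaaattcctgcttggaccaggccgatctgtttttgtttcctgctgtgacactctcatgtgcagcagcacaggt
The Ces1g window held AGATAA at 2 places and TATAAA once, all on the opposite strand. Ces1e held AGATAA once, Ces2a held AGGTCA once, and Ces1c held none of these letters. Among 32851 promoter windows of this length, AGATAA was found in 11.2%, TATAAA in 13.6% and AGGTCA in 16.3%. Of the 15 carboxylesterase genes with a window, 5 held AGATAA (Ces1e, Ces1g, Ces1h, Ces2g and Ces3b), 3 held TATAAA and 3 held AGGTCA. Also searched on both strands were GTTAAT, found in 2 of the 15, and CAAAGTCCA, TGACNNNGC and a direct repeat of AGGTCA with 1 base between the copies, each found in 0. A match is a description of letters and not a binding site. Aligned end to end, the windows of Ces1g and Ces1e were 50.4% identical and those of Ces1g and Ces1c 55.2%, against a median of 50.6% over all 105 pairs of the 15 genes. Among the windows of Ces2a, Ces2c, Ces2e and Ces2g identity ran from 55.5% to 66.9%, the highest being Ces2a with Ces2c. The most alike pair of the family was Ces1b with Ces1c, at 78.6%. Ces1d, Ces1f and Ces3a have no window here.

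Within the 9 genes, intensities were lower in the transgenic pool for each of the 10 probe sets, by amounts that ran from near 0 to 2.12-fold. Only the Ces1g probe set passed 2-fold, and 3 passed 1.5-fold, those of Ces1g, Ces1e and 1 of 3 for Ces1d. The background among all 45101 probe sets was 0.111% at 2-fold lower, 1.14% at 1.5-fold lower and 46.7% below 0. The median difference was -0.24 over the 10 probe sets and 0.01 over all probe sets. Since the genes were chosen with their values known, nothing is read from their count. A total of 8 of the 10 probe sets passed the expression filter, which asks that the higher of both values reach 78.5. The probe set of Ces3a and Ces3b and 1 of Ces1d did not.

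**Figure D1:**
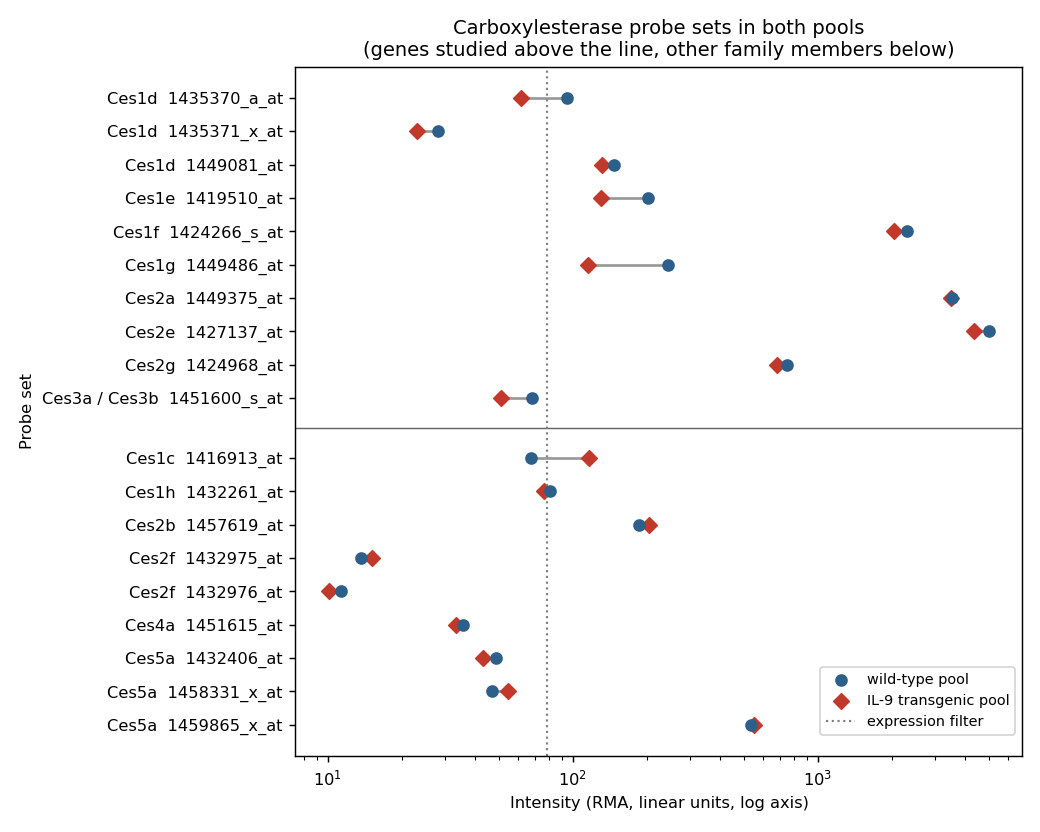
Intensity of each carboxylesterase probe set in the wild-type pool (circles) and the IL-9 transgenic pool (diamonds), on a log axis, with the expression filter of 78.5 dotted; each point is 1 array of 1 pool. The widest gap among the genes studied is that of Ces1g, at 245 against 115, while the symbols of Ces2a overlap and Ces1c runs the other way.

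Ces1g, also known as carboxylesterase 1 of the mouse and linked to lipid handling in liver and intestine, had the largest difference. Its probe set 1449486_at gave an intensity of 245 in wild-type and 115 in transgenic intestine. The transgenic value was 46.8% of the wild-type value, a log2 difference of -1.09. Of all probe sets, 0.0732% were as low or lower on this scale, and of those past the filter 0.133% were. Both values lay above the filter, and the gene has no other probe set. With a pseudocount of 16 in place of 1 the difference was -0.997, just under 2-fold. In bulk tissue, fewer cells that make a transcript and less transcript per cell cannot be told apart.

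Ces1e, known as egasyn, holds beta-glucuronidase in the endoplasmic reticulum. Its probe set 1419510_at gave 203 in wild-type and 130 in transgenic intestine, 1.55-fold lower with a log2 difference of -0.64. It fell short of 2-fold and was the nearest to it of the 9 genes after Ces1g. For comparison, 95% of the 11862 genes past the filter differed by between -0.49 and 0.50. Ces1g and Ces1e lay outside that band, and the other measured genes of the 9, taken by their brightest probe set, lay inside it. The band pools genes of all intensities past the filter, and the 9 were chosen with their differences known, so it is no test.

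Ces1d, the triglyceride hydrolase that mobilises stored lipid in liver and fat, was read by 3 probe sets that differed in size. The brightest, 1449081_at, read 132 in the transgenic and 147 in the wild-type pool, a difference of -0.16. The probe set 1435370_a_at read 61.3 and 95.1, a difference of -0.62, and reached the filter in the wild-type pool but not in the transgenic pool. The dimmest, 1435371_x_at, read 23.1 and 28.1, a difference of -0.28. All 3 were lower in the transgenic pool, with an SD of 0.24 between their differences. Across the array, the matching SD within a gene was 0.23, pooled over 4965 genes that had more than 1 probe set above the filter. The 1.5-fold count for Ces1d therefore rests on 1 of its 3 probe sets. Its brightest probe set, at -0.16, differed by less than the SD of 0.23, so no direction is given for the gene. That SD covers the spread between probe sets of a gene on the same arrays and not the variation from mouse to mouse. Whether all of this spread is technical was not tested.

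Ces1f, a second triglyceride hydrolase of liver and fat, read 2047 in the transgenic and 2314 in the wild-type pool, a difference of -0.18. Its probe set, 1424266_s_at, is of a kind that can match more than 1 transcript, so signal from its close relatives cannot be told apart from its own. The difference is smaller than the SD of 0.23 between probe sets of 1 gene, so no direction is given for Ces1f.

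The Ces2 genes, the intestinal carboxylesterases, showed small differences. Ces2a read 3490 in the transgenic and 3536 in the wild-type pool (1449375_at), a difference of -0.02. Ces2e, known for hydrolysis of pyrethroid esters, read 4330 and 5018 (1427137_at), a difference of -0.21. Ces2g read 680 and 750 (1424968_at), a difference of -0.14. Each of the 3 differences was smaller than the SD of 0.23 between probe sets of 1 gene, so no direction is given for these genes. That SD does not cover variation from mouse to mouse. The median difference was -0.14 over the 3 Ces2 probe sets and -0.45 over the 6 Ces1 probe sets of the genes studied. Of those 6, 3 are of Ces1d. Outside the genes studied, Ces1c at 0.78, Ces1h at -0.07, Ces2b at 0.14 and Ces2f at 0.14 and -0.16 are left out. The contrast between both medians was not tested, and nothing is read from it since the genes were chosen with their values known.

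Ces3a and Ces3b, neighbours that encode liver-enriched lipid hydrolases, share the probe set 1451600_s_at. It read 50.9 in the transgenic and 68.5 in the wild-type pool, a difference of -0.42. Both values lay below the filter, where background signal makes up more of the reading, and the probe set cannot say which of both genes it measured.

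**Figure D2:**
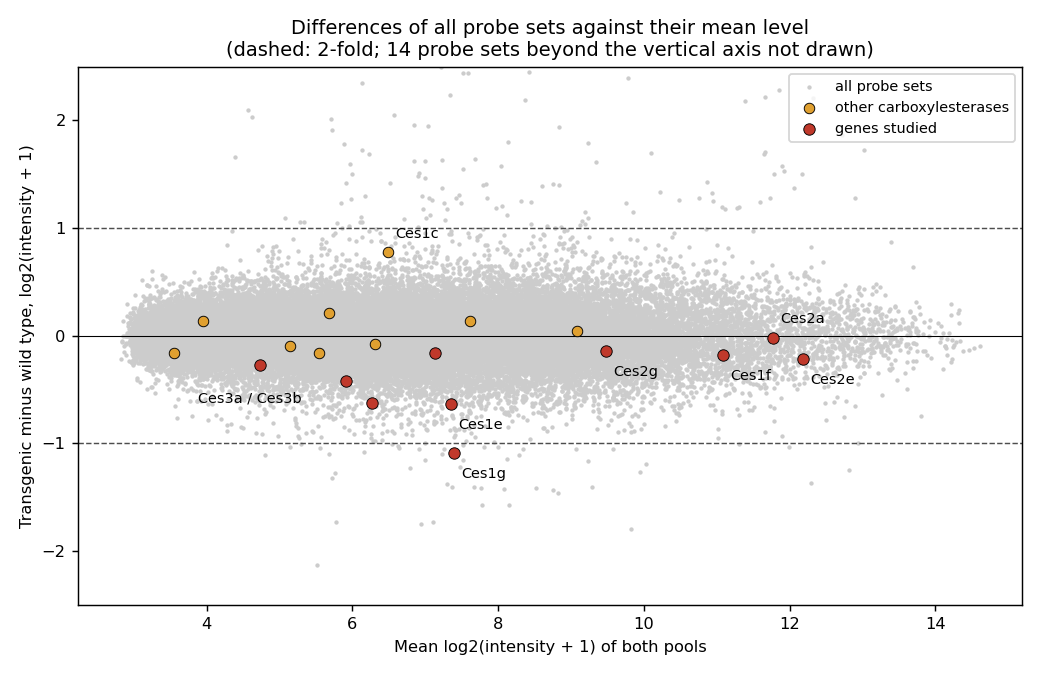
Difference between the pools, transgenic minus wild type on the log2(intensity + 1) scale, against the mean log2 level of each of the 45101 probe sets, with lines at 2-fold. Ces1g is the one carboxylesterase beyond the 2-fold line, at -1.09, and Ces1c, at 0.78, is the highest of the family.

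Values of the rest of the family lay on both sides of 0. Of the 11 other carboxylesterase genes, 6 had a probe set of their own, 9 probe sets in all, of which 5 lay above 0 and 4 below with a median of 0.04. None was past 2-fold in either direction, against 0.277% higher and 0.111% lower among all probe sets. Ces1c, the carboxylesterase that liver secretes into plasma, was the exception in size. It read 117 in the transgenic and 67.7 in the wild-type pool (1416913_at), 1.71-fold higher, and reached the filter in the transgenic pool but not in the wild-type pool. Of all probe sets, 0.514% were as high or higher, and of those past the filter 99.1% were as low or lower. Ces2b, a relative of Ces2a, read 205 and 186, a difference of 0.14, and Ces1h read 76.5 and 80.5, a difference of -0.07. Ces5a, known as cauxin, gave 3 probe sets at -0.16, 0.04 and 0.21, of which only the one at 0.04 passed the filter. That one, 1459865_x_at, read 549 in the transgenic and 533 in the wild-type pool, while the others read between 43.1 and 54.2. As with Ces1f, it is of a kind that can match more than 1 transcript, so its signal may not be from Ces5a alone. Its 0.04 stands for Ces5a in the order along the chromosome. Ces2f and Ces4a stayed under the filter throughout, and their probe sets lay between -0.16 and 0.14.

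The carboxylesterase genes lie in 2 clusters on mouse chromosome 8, with 9 genes (the Ces1 genes and Ces5a) in the first and 11 (Ces2, Ces3 and Ces4a) in the second. By their order in the RefSeq annotation, no other protein-coding gene lies inside either cluster. In the first cluster the order Ces1c, Ces1d, Ces1e, Ces1f, Ces1g, Ces1h, Ces5a gave differences of 0.78, -0.16, -0.64, -0.18, -1.09, -0.07 and 0.04. The genes at -1.09 and -0.64 were thus separated by Ces1f at -0.18, and the gene at 0.78 lay next but one to Ces1e. In the second cluster Ces2a, Ces2b, Ces2e, Ces2f, Ces2g, the shared probe set of Ces3a and Ces3b, and Ces4a gave -0.02, 0.14, -0.21, 0.14, -0.14, -0.42 and -0.10. Those of Ces2f, Ces3a and Ces3b, and Ces4a were below the filter.

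**Figure D3:**
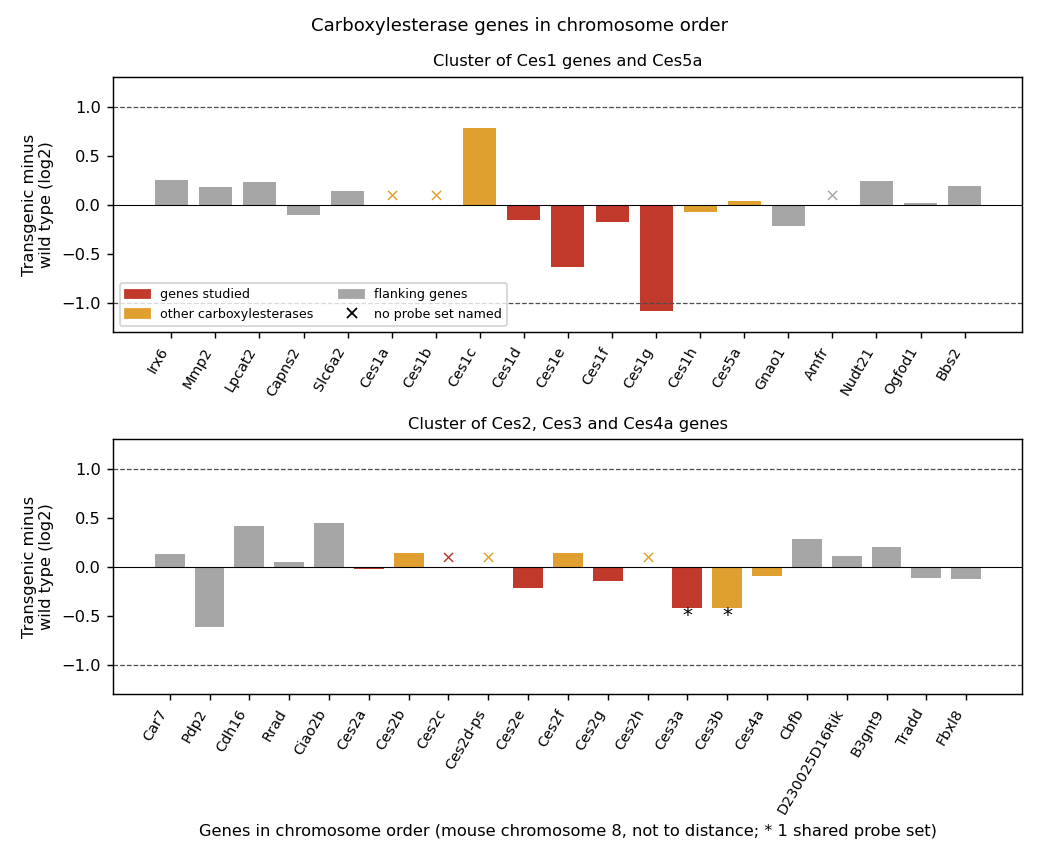
Difference of each gene, transgenic minus wild type (log2), by its brightest probe set, in order along mouse chromosome 8, with 5 flanking genes on each side of each cluster. Crosses mark genes with no probe set named, Ces3a and Ces3b show their shared probe set, and the lowest bar is Ces1g beside Ces1f at -0.18 and Ces1h at -0.07.

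Other genes of ester, lipid and drug metabolism are given by lists at the level of genes past the filter. Among all such genes 0.607% were 2-fold higher, 0.202% 2-fold lower and the median was 0.01. The share below 0 was taken for probe sets past the filter only, where it was 48.1%. Nothing is read from the counts of listed genes on either side of 0. Among enzymes that cleave lipid esters, 2 of 16 read past 2-fold higher and 0 past 2-fold lower, around a median of 0.01. The 2 were the pancreatic-type lipases Pnliprp1 (446 against 81.5) and Pnliprp2 (8180 against 1682). Lpl, lipoprotein lipase, differed by 0.55 and Daglb, a diacylglycerol lipase, by -0.37. Aadac, a microsomal deacetylase that shares substrates with carboxylesterases, read 1432 in the transgenic and 1593 in the wild-type pool, a difference of -0.15. It was chosen after its value was seen.

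Of 14 other ester and thioester hydrolases, 0 were past 2-fold and 8 lay above 0. The largest differences were 0.46 in Acot13, an acyl-CoA thioesterase, 0.44 in the paraoxonase Pon3, -0.43 in the paraoxonase Pon2 and -0.39 in Acot1, which reached the filter in the wild-type pool only. The mean over the 4 probe sets of Pon2 was -0.21.

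Triglyceride synthesis and chylomicron assembly, the pathway that receives fatty acids released in enterocytes, had 0 of 21 genes past 2-fold, 14 below 0 and a median of -0.10. The largest differences were -0.50 in Gpat3, which starts glycerolipid synthesis, -0.39 in the fatty acid transporter Slc27a4, -0.39 in the fatty acid translocase Cd36 and -0.30 in Apoc3, an apolipoprotein of triglyceride-rich particles.

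Phase I drug metabolism genes, which act beside carboxylesterases on foreign compounds, had 0 of 17 past 2-fold, 12 below 0 and a median of -0.12. Cyp2c29 differed by 0.87, Cyp1a1, a target of the aryl hydrocarbon receptor, by -0.60, Cyp3a11, the main drug-oxidising enzyme induced through the pregnane X receptor, by -0.41 and Cyp2d26 by -0.32. Phase II genes had 0 of 16 past 2-fold, 8 on each side of 0 and a median of 0.08. Their largest differences were 0.69 in the glutathione transferase Gstm3, 0.52 in Gsta2, -0.51 in the glucuronosyltransferase Ugt2b5 and 0.45 in Gsta3, whose mean over probe sets was 0.13.

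Of 16 nuclear receptors and other regulators, 0 were past 2-fold and 8 lay on each side of 0, with a median of -0.03, or 0.06 with the mean over probe sets, so the list has no settled sign. Nr1i3, the receptor CAR, differed by 0.40, Ahr, the aryl hydrocarbon receptor, by 0.38 and Rxra, the common partner receptor, by -0.34 (mean over probe sets -0.10). Hnf4g differed by -0.46, while the mean over its probe sets was 0.08, so no direction is given for it. In the list of endoplasmic reticulum retention and folding, the compartment that holds most carboxylesterases, 0 of 12 were past 2-fold and the median was -0.09, which turned to 0.06 with the mean over probe sets. Kdelr3, a receptor that returns proteins to this compartment, differed by 0.64 and Kdelr1 by -0.30. Canx and Pdia3, a chaperone and a disulfide isomerase, differed by -0.32 and 0.31, with means over probe sets of -0.10 and 0.06.

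**Figure D4:**
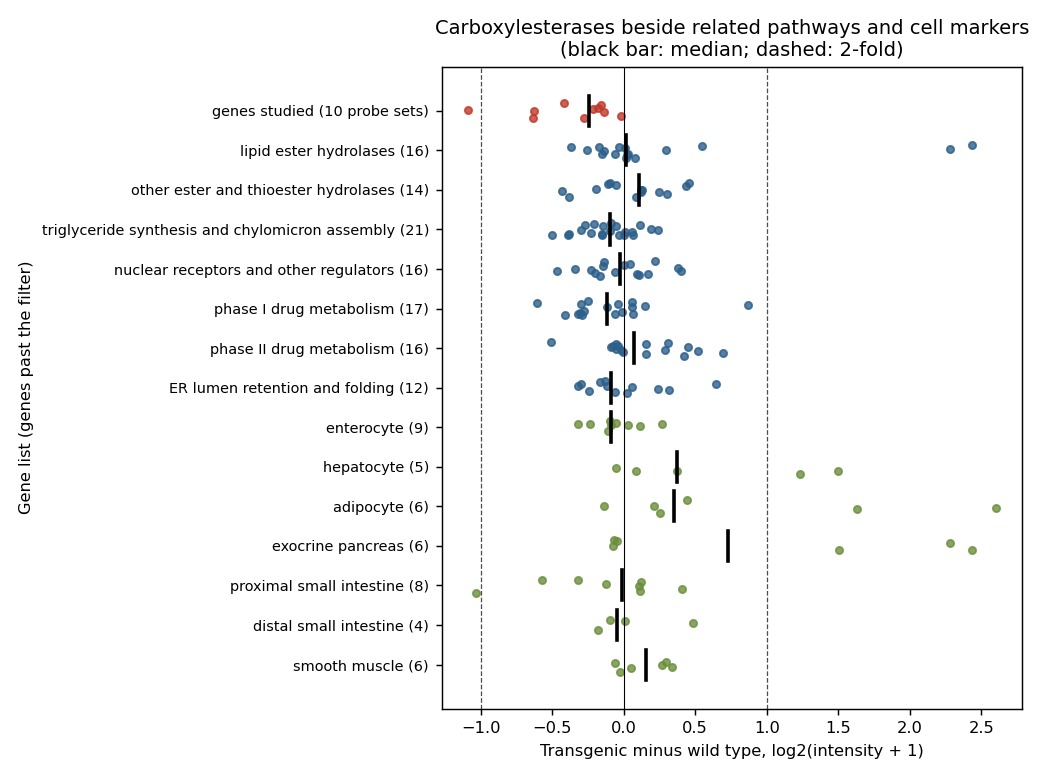
Difference of each gene past the filter, transgenic minus wild type on the log2(intensity + 1) scale, for related pathways (blue) and cell type markers (green), with the 10 probe sets of the genes studied on top (red, no filter); black bars are medians and dashed lines 2-fold. All 10 probe sets lie left of 0, from which nothing is read since the genes were chosen with their values known, and each other list has genes on both sides of 0.

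Markers of other tissues that make carboxylesterases read higher in the transgenic pool in part. Several Ces1 genes are abundant in liver and fat. Of 5 hepatocyte markers above the filter, 2 exceeded 2-fold: Cyp2e1 (106 against 37.0) and Apoh (233 against 98.6), and their list summed to 5273 in the transgenic and 4014 in the wild-type pool. The mean over the probe sets of Apoh was 0.62. Cyp2e1 reached the filter in the transgenic pool but not in the wild-type pool. Most of both sums was Cps1, a urea cycle enzyme that enterocytes also make, at 4659 and 3603. Alb, albumin, read 75.3 and 63.6, below the filter, and the fibrinogen chains Fga and Fgb read between 11.7 and 18.2. Of 6 adipocyte markers past the filter, 2 were higher by 2-fold, Adipoq (91.9 against 14.3) and Car3 (263 against 84.3), and their list summed to 2259 and 1789. Adipoq likewise reached the filter in the transgenic pool alone. Other markers of both lists lay on both sides of 0, and nothing is read from their count. Past the filter, Fabp4 at 0.44, Cps1 at 0.37, Retn at 0.25, Cidec at 0.21 and Tat at 0.08 lay above 0. Ttr at -0.06 and Lipe at -0.14 lay below 0. Under the filter, Ahsg at 0.27, Alb at 0.24, Fga at 0.07, Hpx at 0.05 and Lep at 0.04 lay above 0, and Fgb at -0.14 below. The part of liver or fat RNA in the carboxylesterase values was not tested.

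Among exocrine pancreas markers past the filter, 3 of 6 were higher by 2-fold, Pnliprp1, Pnliprp2 and Clps, and the list summed to 15091 in the transgenic and 4385 in the wild-type pool. Pnliprp2 and Clps made up most of the transgenic sum, at 8180 and 5963. The other 3, the proteases Cela1, Ctrb1 and Prss2, lay at -0.05, -0.07 and -0.08. The acinar enzymes Cpa1, Cpb1 and Cela2a were below the filter in both pools. Of 8 markers of the proximal small intestine, 1 was lower by 2-fold: Cubn, which takes up vitamin B12 bound to intrinsic factor, at 2851 against 5833. The list summed to 37436 and 40879. Onecut2, a transcription factor of the duodenum, differed by -0.57, while Adh6a differed by 0.41 and Lct, lactase, by -0.32. Of the 4 distal markers past the filter, 0 were past 2-fold, the largest difference being 0.49 in Slc51b, a subunit of the bile acid exporter. Their list summed to 10255 and 9933. Smooth muscle markers summed to 20430 and 19495, with 0 of 6 past 2-fold. Whether the pools differed in the length of intestine taken was not tested.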

How the data were processed

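The authors deposited 1 intensity per probe set and array; RMA is named per the submitters' processing notes, without a version, and the deposited values are on a linear scale. RMA equalises the distributions of the arrays, so a change shared by most genes could not be seen. Their chip annotation and genome build: not given in the sources used here. Detection calls were not used here, and the single array per pool limits the precision. Gene names came from the platform's annotation table, which gives 1 symbol for 34958 probe sets, several for 932 and none for 9211.

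From these values, log2(intensity + 1) differences and counts past 2-fold were computed with Python 3.11.15, numpy 2.4.6 and pandas 2.3.3, without p-values. At gene level, the probe set with 1 symbol and the highest mean stood for its gene. The members and lists were chosen with earlier results of these data known. Named genes are all carboxylesterases and, from each list, up to 4 genes with the largest differences; any other gene was picked once its value was known. Promoter windows were aligned end to end with Biopython 1.88, and identity counts gap columns as different. The computation was tested on simulated data. Alternatives were the filter, the pseudocount, quantile normalization, centring, kinds of probe set, mean over probe sets and other folds.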

Additional observations from a re-analysis of the deposited data

How the results depend on the processing

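Of the 74 values recomputed for the 9 genes, 70 stayed close to those reported. Close means within 1.5 times for a count and within the SD of 0.23 between probe sets of 1 gene for a difference. The 70 are no measure of robustness, since part of the outcomes was fixed in advance. The mean over probe sets cannot differ for the 7 genes with 1 probe set. The SD of 0.23 also exceeds the whole reported difference of Ces1d, Ces1f, Ces2a, Ces2e and Ces2g. The 4 that moved all concern the count of probe sets lower by 2-fold, which is 1 (Ces1g). That count was 0 with a pseudocount of 16, 0 with the filter at the 75th percentile, which leaves out Ces1g, 0 at 3-fold and 3 at 1.5-fold. Over its 6 alternatives Ces1g ran from -1.10 to -0.997, so its place past 2-fold is close to the threshold. Ces1e ran from -0.64 to -0.58 and Ces1d from -0.35 to -0.14. No gene changed sign, but a pseudocount cannot turn a sign, and centring lowered each value by 0.007, away from 0. The probe sets of Ces1d all lay below 0, so their mean could not turn either. The kept sign is therefore no measure of robustness. Among the other lists, 2 of 168 recomputed values moved: the pancreas median was 0.08 without a filter, and 1 hepatocyte marker in place of 2 was past 2-fold with the mean over probe sets. Shifts under 0.23 count as close here, and among them the medians of the regulator list (-0.03 to 0.06) and of the endoplasmic reticulum list (-0.09 to 0.06) turned sign with the mean over probe sets. No paired analysis was possible because each group is 1 pool. No replicate could be left out, since each group has 1 array. Single arrays of pools and dim signals, such as those of Ces3a, limit all of these values.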

Other observations

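Genes beside the carboxylesterase clusters were read as well. Of 20 flanking genes, 5 on each side of each cluster, 15 were past the expression filter and 0 of them differed by 2-fold. Among these 15, 11 lay above 0 and the median was 0.14. Of the 23238 probe sets past the filter on the whole array, 11828 lay above 0, and nothing is read from the count of flanking genes. The lowest of the 15 was Pdp2, a pyruvate dehydrogenase phosphatase. It read 370 in wild-type and 241 in transgenic intestine, a difference of -0.62, close to that of Ces1e. The highest was Ciao2b, which serves iron-sulfur protein assembly, at 1725 and 1263, a difference of 0.45. Car7, a carbonic anhydrase, differed by 0.13 and Mmp2, a matrix metalloproteinase, by 0.18. These genes were chosen by position alone, after the values of the carboxylesterases were known.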
